A study of Mus musculus with 3 samples.

Results

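The genes examined here serve antigen presentation and the response to interferon, and they were followed across the cell classes of the mouse subventricular zone (SVZ). The 30 members were taken by symbol from the 27998 genes listed for each library, and each symbol had 1 row. By role they comprised 5 class I genes (4 heavy chains and B2m), 6 genes of peptide supply, 4 class II genes, 2 IFITM genes, 9 interferon-induced effectors and 4 transcription factors of the interferon pathway. Over all kept cells, 20 members had at least 20 unique molecular identifiers (UMIs, each standing for 1 captured RNA molecule), 8 had fewer, and 2, Cd74 and H2-Aa, had none. The members held 2768 UMIs in total, and 12 of the 30 genes lie on mouse chromosome 17.

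MHC class I molecules show peptides from inside the cell to CD8+ T cells. A heavy chain pairs with beta-2-microglobulin, the peptides are cut by the proteasome, and the TAP transporter with tapasin loads them in the endoplasmic reticulum. Class II molecules, with the invariant chain Cd74, show peptides from ingested material to CD4+ T cells and are normally found on specialised immune cells. Interferons act through JAK kinases and STAT and IRF factors, which bind the interferon-stimulated response element (ISRE) and the gamma-activated site (GAS). In the healthy brain, neurons are known for low class I levels, and ependymal cells are the ciliated lining of the ventricles.

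Single-cell 3' RNA libraries (10x Chromium v2) were made from the SVZ of 5 adult mice. The animals carried the transgenes aSMACreERt2 and Rosa26-tdTomato and the Sox2 allele Sox2tm2Hoch, which makes GFP, on a mixed background of C57/Bl6 (3/4) and 129S1SvlmJ (1/4). The Cre is driven by the promoter of smooth muscle actin, a gene also known from the mural cells of vessels. All sorted cells were GFP-positive. tdTomato-positive cells gave 1 library (1200 sorted cells), and tdTomato-negative cells gave 2 (1200 and 6000 sorted). The sources used here give neither tamoxifen treatment nor exact age. The labels do not tie libraries to separate animals, so p-values measure the spread between these libraries, which may be technical.

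The 3 libraries held 788344 to 3593633 UMIs, and 252 tdTomato-positive and 256 and 1121 tdTomato-negative cells were kept. The median mitochondrial share of UMIs was 8.27% for tdTomato-positive cells, against 3.22% and 3.38%. Clustering, from which the members and the other pathway genes were left out, gave 234 ependymal-like, 276 astrocyte-like, 254 transit-amplifying-like, 379 neuroblast-like, 69 oligodendrocyte precursor-like and 37 oligodendrocyte-like cells. A further cluster of 338 cells is called by its leading genes Prokr2, Pbx3 and Meg3. All 20 endothelial-like cells were tdTomato-positive, and so were all 8 mural-like and all 14 microglia-like cells and 177 of the ependymal-like cells. The libraries shared 0 to 2 cell barcodes pairwise.

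Promoter sequence was read to see which members share a motif. RefSeq windows (GRCm38.p6), from 250 bases before to 50 after the start of a transcript, were matched for 25 members. The ISRE core (GAAA, any 2 bases, GAAA) was searched on both strands, so that it can also read TTTC, any 2 bases, TTTC. It was found in 11 of the 25 members (44%) and in 3.99% of all 27025 genes with a window. The list was chosen to include interferon-response genes, so this difference is no independent result. The GAS letters TTCNNNGAA, which read the same on both strands, were found in 5 of the 25 (20%) and in 9.55% of all genes. The 7 windows below belong to members with different class patterns, with ISRE core letters in capitals, each read 5′ to 3′ on the strand of its gene.
Ifitm3: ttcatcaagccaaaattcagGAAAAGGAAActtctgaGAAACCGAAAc
Ifitm2: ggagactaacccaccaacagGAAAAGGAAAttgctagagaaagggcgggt
Bst2: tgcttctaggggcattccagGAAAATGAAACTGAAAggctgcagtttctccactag
Isg15: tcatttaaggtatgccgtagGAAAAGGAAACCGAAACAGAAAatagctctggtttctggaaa
Ifit1: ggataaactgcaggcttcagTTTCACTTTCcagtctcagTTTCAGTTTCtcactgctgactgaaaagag
Ifit3: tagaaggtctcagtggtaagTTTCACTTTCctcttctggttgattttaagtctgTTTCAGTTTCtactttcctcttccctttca
B2m: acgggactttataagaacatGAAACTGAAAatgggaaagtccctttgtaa
These stretches lie at chr7:141010715-141010762 (Ifitm3, minus strand), chr7:140955978-140956027 (Ifitm2, minus), chr8:71537567-71537622 (Bst2, minus), chr4:156200855-156200916 (Isg15, minus), chr19:34640765-34640833 (Ifit1, plus), chr19:34583353-34583436 (Ifit3, plus) and chr2:122147528-122147577 (B2m, plus). Ifitm3, Ifit1, Ifit3 and Bst2 each held 2 matches and Isg15 held 3, and those of Bst2 and Isg15 overlapped one another. In Bst2 a GAS match also overlapped the first ISRE match, and in Ifitm3 a GAS match overlapped the start of the second. The Ifitm3 matches began 3 and 20 bases after the RefSeq start, whereas the other 6 shown lay before it.

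**Figure D1:**
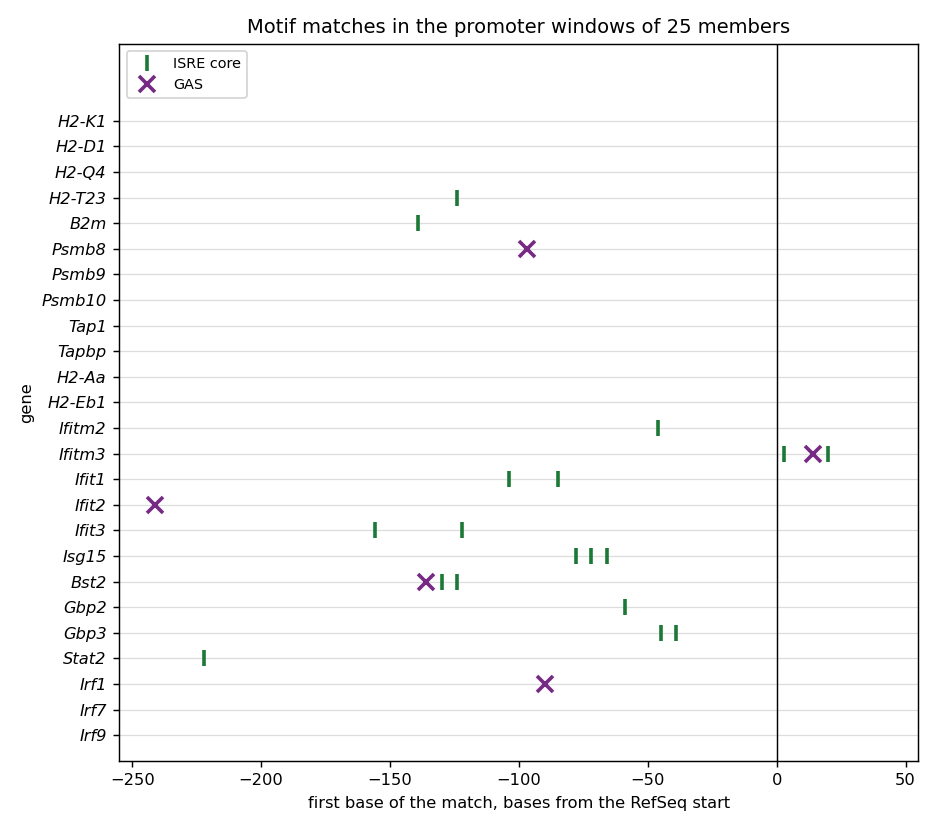
Positions of ISRE core matches (bars) and GAS matches (crosses) in the promoter windows of 25 members; the x axis gives bases from the RefSeq start and each line is 1 gene. Matches of the ISRE core lie in 6 of 7 effectors and both IFITM genes, and in none of 5 peptide supply genes.

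By role, the ISRE core was found in 6 of 7 effectors with a window, in 2 of 2 IFITM genes, in 2 of 5 class I genes (B2m and H2-T23), in 1 of 4 transcription factors (Stat2), in 0 of 5 peptide supply genes and in 0 of 2 class II genes. A match describes letters in a window and does not show binding. H2-K1 and H2-D1, the heavy chains with the most UMIs, had no exact match of either motif in this window. Only exact letters were searched, so a variant form of either element would be missed, in these genes as in others.

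Class I genes were detected in every class, most of all in the microglia-like and endothelial-like cells of the tdTomato-positive library. B2m, the light chain of class I (chr2:122147686-122153083), stood at 1951 CPM (counts per 1e6 UMIs) in the 14 microglia-like cells, with an exact Poisson 95% interval of 1453 to 2565 that covers counting error only. It stood at 991 CPM in endothelial-like cells. Among neural classes, B2m was at 61.6 and 165 CPM in oligodendrocyte precursor-like cells (tdTomato-negative libraries 1 and 2) and at 31.1, 83.6 and 94.0 CPM in astrocyte-like cells (tdTomato-positive, then tdTomato-negative 1 and 2). Levels in ependymal-like cells were 44.2, 0 and 57.5 CPM, and the library at 0 held only 12 such cells, whose interval reached 82.1 CPM. Transit-amplifying-like cells had 35.3 and 27.2 CPM and neuroblast-like cells 6.34 and 21.9 CPM of B2m. The astrocyte-like range overlapped with the ependymal-like and the oligodendrocyte precursor-like ranges, which did not overlap with each other. Microglia-like and endothelial-like cells lay above every neural class in this gene, in 1 library without a replicate check.

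H2-K1, a classical heavy chain (chr17:33996017-34000347), was higher in 3 glial classes than in proliferating and neuroblast classes. It stood at 52.7, 44.5 and 34.5 CPM in ependymal-like cells, 31.1, 52.2 and 65.8 CPM in astrocyte-like cells, and 46.2 and 37.2 CPM in oligodendrocyte precursor-like cells. Transit-amplifying-like cells had 2.71 and 4.40 CPM and neuroblast-like cells 0 and 2.58 CPM, so these libraries did not overlap with the ependymal-like or astrocyte-like ones. H2-K1 was detected in 15% of ependymal-like and 12.7% of astrocyte-like cells, against 2.76% of transit-amplifying-like and 0.528% of neuroblast-like cells. The median depth was 3632.5, 2352, 6188 and 2284 UMIs per cell in these 4 classes, and in the 216, 265, 253 and 377 cells deep enough to be thinned to 1000 UMIs the H2-K1 shares became 5.09%, 6.79%, 0% and 0.265%. Thinning left out 41 tdTomato-positive and 12 and 6 tdTomato-negative cells, those under that depth. Oligodendrocyte-like cells, which are also glia, had 0 and 9.58 CPM of H2-K1, from 1 UMI in 37 cells, and the microglia-like value rests on 4 UMIs.

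The class differences were tested on UMI sums per library and class with edgeR's quasi-likelihood test and Benjamini-Hochberg adjustment over the 3873 genes that passed the count filter. Of the 30 members, 15 passed that filter. Astrocyte-like cells had 7 members higher than transit-amplifying-like cells and 0 lower, beside 47.6% of all tested genes called, 17.6% higher and 30.0% lower. The members' median log2 difference was 1.31 and that of all tested genes was -0.33. Of all calls 37.0% were higher under TMM scaling and 57.1% under RLE scaling, which moved the median of all genes by 0.47 and called 10 members. H2-K1 was higher by 3.56 on the log2 scale (SE 0.57, adjusted p = 4.16e-09 in edgeR), B2m by 1.32 (SE 0.37, 0.00111) and Psmb10 by 1.20 (SE 0.47, 0.0246). Tapbp passed with an adjusted p of 0.033 in edgeR. The other members called were Ifitm3, Ifit3 and Ifi27. Ifit3 stood at 0 to 22.6 CPM over the 3 astrocyte-like libraries, with all its UMIs there in tdTomato-negative library 2. DESeq2 did not call Ifit3 (adjusted p = 0.768). Ifit3 was not tested when either tdTomato-negative library was left out. Without tdTomato-negative library 2, edgeR called 0 of 8 members tested, with 2 at an unadjusted p under 0.05 (H2-K1 then 3.79, adjusted p = 0.0665; B2m 0.95, 0.454; Ifitm3 2.77, 0.102; Ifi27 1.38, 0.197; Tapbp 3.20, 0.207). Without tdTomato-negative library 1, edgeR called H2-K1 alone (3.76, adjusted p = 0.000703), and B2m (1.70), Psmb10 (1.26), Ifitm3 (2.12), Ifi27 (1.55) and Tapbp (1.56) had adjusted p-values of 0.0841 to 0.326.

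Against neuroblast-like cells, astrocyte-like cells had 5 members higher and 1 lower, beside 16.5% and 27.4% of all tested genes and 43.9% in either direction. The median was 1.35 over the members tested and -0.32 over all genes. Of all calls 37.5% were higher under TMM and 57.3% under RLE scaling, which called 8 members higher and 0 lower. H2-K1 had 41 UMIs in astrocyte-like and 2 in neuroblast-like cells, a pooled log2 ratio of 4.86 with an exact interval of 2.92 to 7.96 (adjusted p = 7.77e-08 in edgeR). B2m was higher by 1.94 (SE 0.44, adjusted p = 6.02e-05 in edgeR). Ifitm3, Ifit3 and Ifi27 were the other 3. The astrocyte-like UMIs of Ifit3 all came from tdTomato-negative library 2, and Ifit3 was not tested when either tdTomato-negative library was left out. H2-T23, a non-classical heavy chain that presents to NK cell receptors, had 0 UMIs in astrocyte-like and 9 in neuroblast-like cells, at least 1.08 lower on the log2 scale against a floor of 3 UMIs over the group. That call was lost in 7 of 10 alternative settings. Without tdTomato-negative library 2 edgeR called 0 of 8 members tested, with 2 at an unadjusted p under 0.05 (B2m 3.35, adjusted p = 0.0662; H2-K1 5.84, 0.0975; Ifitm3 1.19, 0.565; Ifi27 1.25, 0.37). Without tdTomato-negative library 1 B2m (1.94, adjusted p = 0.0832 in edgeR), Ifitm3 (2.67, 0.0581) and Ifi27 (1.15, 0.322) lost the call.

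H2-D1, the other classical heavy chain (chr17:35262730-35267499), differed less between classes. It stood at 52.7, 89.0 and 63.3 CPM in ependymal-like cells and at 0, 31.3 and 54.5 CPM in astrocyte-like cells. Transit-amplifying-like cells had 27.1 and 22 CPM, neuroblast-like cells 31.7 and 23.2 CPM, and oligodendrocyte precursor-like cells 46.2 and 128 CPM. Oligodendrocyte-like cells had 37.1 CPM, from 1 UMI in the tdTomato-positive library, and 38.3 CPM, too few UMIs to rank them. The ependymal-like and oligodendrocyte precursor-like libraries lay above the transit-amplifying-like and neuroblast-like ones, and the astrocyte-like range overlapped with them. H2-D1 stood at 932 CPM in endothelial-like cells, 421 CPM in microglia-like cells and 506 CPM in mural-like cells, the last from 4 UMIs in 8 cells. H2-D1 reads can be shared with near-identical heavy chain genes of the chromosome 17 cluster, so single heavy chains are uncertain. H2-Q4, a further heavy chain, had 13 UMIs in 13 cells.

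Peptide supply genes differed in the classes that held most of their UMIs. Psmb8 and Psmb9, subunits of the immunoproteasome, had about as many UMIs in the 42 vascular and microglia-like cells as in all others together. Psmb8 had 20 UMIs, of which 11 lay in those 42 cells, 5 in astrocyte-like cells and 1 in ependymal-like cells. Psmb9 had 23 UMIs, 11 of them in endothelial-like and microglia-like cells and 8 in ependymal-like cells. Psmb9 and Tap1 overlap on opposite strands at their starts, and the sources used here do not say whether counting used strand.

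Psmb10, the remaining immunoproteasome subunit, had most of its 154 UMIs in the neural classes. By level it was still highest in microglia-like cells (153 CPM, 4 UMIs) and endothelial-like cells (87.4 CPM, 3 UMIs). It stood at 18.7, 22.2 and 23 CPM in ependymal-like cells, 62.2, 73.1 and 39.5 CPM in astrocyte-like cells and 13.6 and 19.1 CPM in transit-amplifying-like cells. The astrocyte-like libraries were above both other classes without overlap, and the ependymal-like and transit-amplifying-like ranges overlapped. The astrocyte-like 62.2 CPM rests on 2 UMIs in 16 cells, and the ependymal-like 22.2 CPM comes from 12 cells. edgeR did not call Psmb10 between ependymal-like and astrocyte-like cells. In the Prokr2/Pbx3/Meg3-led cluster Psmb10 stood at 49.3 and 40.1 CPM, where B2m stood at 5.48 and 11.1 CPM.

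Tapbp, which encodes tapasin, was high in ependymal-like cells at 66.3, 89.0 and 69.0 CPM. Endothelial-like cells stood higher in Tapbp, at 175 CPM from 6 UMIs. Astrocyte-like cells had 62.2, 20.9 and 30.1 CPM of Tapbp, transit-amplifying-like cells 2.71 and 11.7 CPM and neuroblast-like cells 12.7 and 9.02 CPM. No ependymal-like library overlapped with those of the other 3 classes, but the astrocyte-like 62.2 CPM lay close and rests on 2 UMIs. edgeR did not call Tapbp between ependymal-like and astrocyte-like cells. Tap2, a subunit of the peptide transporter, had 39 UMIs, 18 of them in ependymal-like cells, and Tap1, its partner, had 7.

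**Figure D2:**
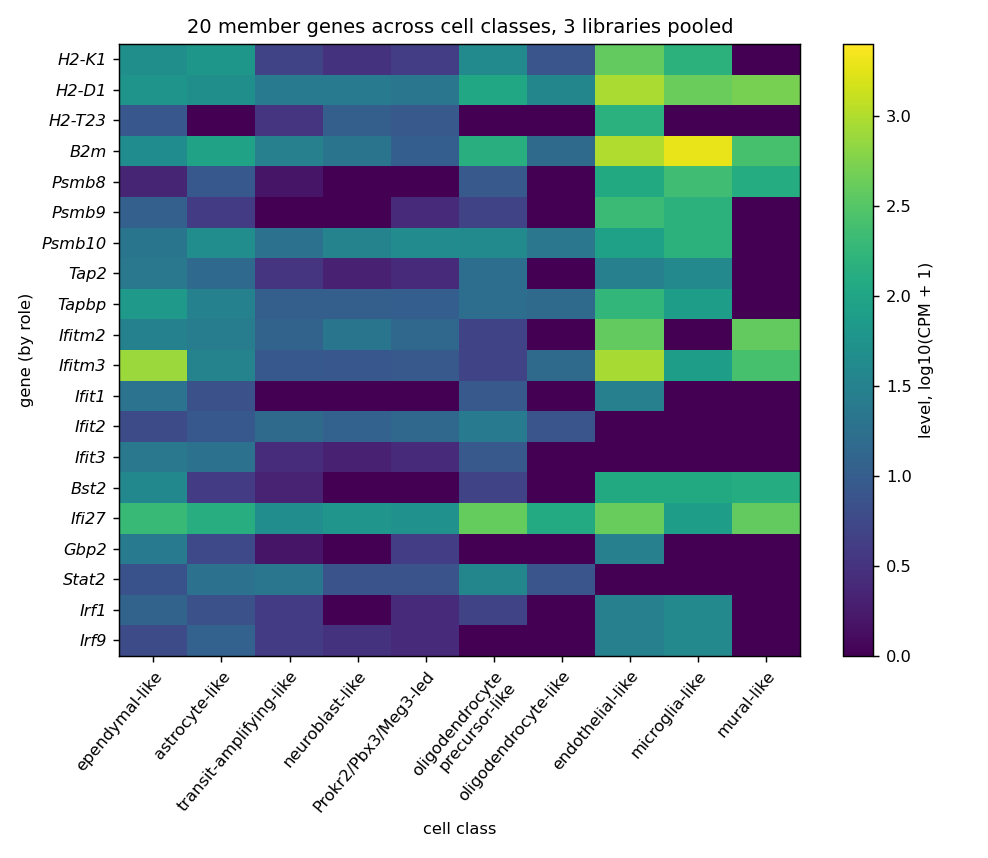
Levels of the 20 members with at least 20 UMIs (rows, ordered by role) in 10 cell classes (columns), as log10 of CPM + 1 over the 3 libraries pooled. Ifitm3 stands out in ependymal-like and endothelial-like cells (778 and 903 CPM), and B2m in microglia-like cells (1951 CPM).

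Class II genes were almost absent from these libraries. Cd74 and H2-Aa had 0 UMIs in all 1629 kept cells, microglia-like cells included. H2-Ab1, a class II beta chain, had 10 UMIs in 10 cells, of which 6 were ependymal-like, 3 transit-amplifying-like and 1 oligodendrocyte precursor-like. Of these H2-Ab1 UMIs, 9 came from tdTomato-negative library 2 and 1 from tdTomato-positive cells. H2-Eb1 had 2 UMIs, both in tdTomato-negative library 2. Ciita, the master regulator of class II, had 0 UMIs.

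Ifitm3 separated ependymal-like cells from all other neural classes. It encodes a membrane protein that blocks entry of viruses (chr7:141009586-141010770), and its promoter window above carries a pair of ISRE core matches. In ependymal-like cells it stood at 782 CPM among tdTomato-positive cells and at 1046 and 696 CPM in tdTomato-negative libraries 1 and 2, a mean of 841 ± 182 (SD, n = 3). Astrocyte-like cells had 93.3, 20.9 and 30.1 CPM of Ifitm3, transit-amplifying-like cells 5.42 and 8.07 CPM, and neuroblast-like cells 19.0 and 5.15 CPM. The lowest ependymal-like library was far above the highest library of every other neural class. Endothelial-like cells matched the ependymal-like level at 903 CPM.

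Ifitm3 UMIs were found in 78.2% of ependymal-like cells and in 6.52% of astrocyte-like, 5.12% of transit-amplifying-like and 1.85% of neuroblast-like cells. In the cells thinned to 1000 UMIs, those Ifitm3 shares became 50.0%, 1.51%, 1.19% and 1.06%. Free RNA can differ between libraries and was not measured, so classes were also set side by side within one. In tdTomato-negative library 2 the thinned Ifitm3 share was 51.1% in ependymal-like and 0.61% in neuroblast-like cells. Among tdTomato-positive cells it was 48.1% in ependymal-like cells and 0 of 12 in astrocyte-like cells, too few to set a background there.

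Ependymal-like cells had 4 members higher than astrocyte-like cells and 0 lower, beside 19.0% of all tested genes higher and 10.6% lower. The median log2 difference of the 15 members tested was 0.62, and that of all tested genes was 0.16. Ifitm3 was higher by 4.48 (SE 0.28, adjusted p = 2.66e-55 in edgeR), and this call was kept in all 12 alternatives run. Bst2, which encodes tetherin, had 30 UMIs against 2, a pooled log2 ratio of 3.62 with an interval of 1.64 to 6.73 (adjusted p = 0.0158 in edgeR). Without tdTomato-negative library 1 Bst2 gave an adjusted p of 0.16. Ifi27, an interferon-inducible mitochondrial protein, was higher by 0.83 (SE 0.28, adjusted p = 0.0122 in edgeR), and this call was lost when any of the 3 libraries was left out (adjusted p = 0.0904 to 0.436). H2-T23 had 6 UMIs against 0, at least 0.71 higher on the log2 scale, and without tdTomato-negative library 1 its adjusted p was 0.218.

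The remaining class I and peptide supply genes showed no call between ependymal-like and astrocyte-like cells. H2-K1 differed by -0.41 (SE 0.53, adjusted p = 0.633 in edgeR), B2m by -0.89 (SE 0.47, 0.157), H2-D1 by 0.62 (SE 0.49, 0.387) and Tapbp by 1.22 (SE 0.55, 0.0816). The pooled counts put the B2m ratio between -1.64 and -0.38 on the log2 scale, an interval that covers counting error only. Over the class I genes and the peptide supply genes together, the summed level was 289, 289 and 288 CPM in ependymal-like cells and 248.9, 303 and 310 CPM in astrocyte-like cells. These ranges overlapped. The same sum was 89.5 and 91.7 CPM in transit-amplifying-like cells and 88.7 and 101 CPM in neuroblast-like cells, below every ependymal-like and astrocyte-like library.

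Against transit-amplifying-like cells, ependymal-like cells had 7 members higher and 0 lower, beside 45.8% of all tested genes called, 21.6% higher and 24.1% lower. The median was 2.14 over the members tested and -0.24 over all genes. Of all calls 47.2% were higher under TMM and 63.6% under RLE scaling, which called 8 members. Ifitm3 was higher by 6.31 (SE 0.31, adjusted p = 1.02e-89 in edgeR), Ifi27 by 2.14 (SE 0.30, 1.29e-11), H2-K1 by 3.15 (SE 0.72, 6.66e-05), Tapbp by 2.62 (SE 0.60, 6e-05) and H2-D1 by 1.42 (SE 0.50, 0.013). Bst2 had 30 UMIs against 2, a log2 ratio of 5.01 with an interval of 3.03 to 8.12. Ifit3, an RNA-binding antiviral protein, had 18 against 3, a ratio of 3.69 (1.91 to 6.09). That interval covers counting error only. Of the 18 UMIs, 8 lay in 1 cell and 2 in another, both tdTomato-positive, and ependymal-like cells of tdTomato-negative library 2 had 0. Without tdTomato-negative library 2, H2-K1 (3.81, adjusted p = 0.0921 in edgeR), Tapbp (4.08, 0.0763) and H2-D1 (1.64, 0.246) lost the call. H2-D1 also lost it without tdTomato-negative library 1 (1.84, 0.142), and Ifit3 without the tdTomato-positive library (2.91, 0.117).

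Against neuroblast-like cells 7 members were higher and 0 lower, beside 43.0% of all tested genes called, 21.6% higher and 21.4% lower. The median was 1.76 over the members tested and -0.18 over all genes. Of all calls 50.2% were higher under TMM and 63.0% under RLE scaling, which called 8 members. Ifitm3 was higher by 6.25 (SE 0.35, adjusted p = 2.23e-66 in edgeR), Ifi27 by 1.76 (SE 0.32, 2.04e-07), Tapbp by 2.57 (SE 0.66, 0.000459) and H2-D1 by 1.30 (SE 0.54, 0.0374). H2-K1 had 39 UMIs against 2, a log2 ratio of 4.50 (2.55 to 7.6). Bst2 had 30 UMIs against 0, at least 3.54 higher on the log2 scale. Ifit3 had 18 against 1, a ratio of 4.39 with a counting interval of 1.72 to 9.77, and 8 of the 18 lay in 1 cell. Without tdTomato-negative library 2, H2-K1 (5.86, adjusted p = 0.108 in edgeR), Ifi27 (2.11, 0.0694), Tapbp (2.24, 0.382) and H2-D1 (1.51, 0.376) lost the call. H2-D1 also lost it without tdTomato-negative library 1 (1.70, 0.204), and Ifit3 without the tdTomato-positive library (3.43, 0.112).

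Against oligodendrocyte-like cells, of which there were 37, 2 members were higher and 0 lower, beside 16.4% of all tested genes higher and 8.26% lower. Ifitm3 had 628 UMIs against 2, a log2 ratio of 5.80 with an interval of 3.94 to 8.85. Ifi27 was higher by 1.05 (SE 0.41, adjusted p = 0.0462 in edgeR), and it passed in 2 of 12 alternatives. Leaving out any 1 of the 3 libraries ended the Ifi27 call (adjusted p = 0.0933 to 0.592 in edgeR).

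**Figure D3:**
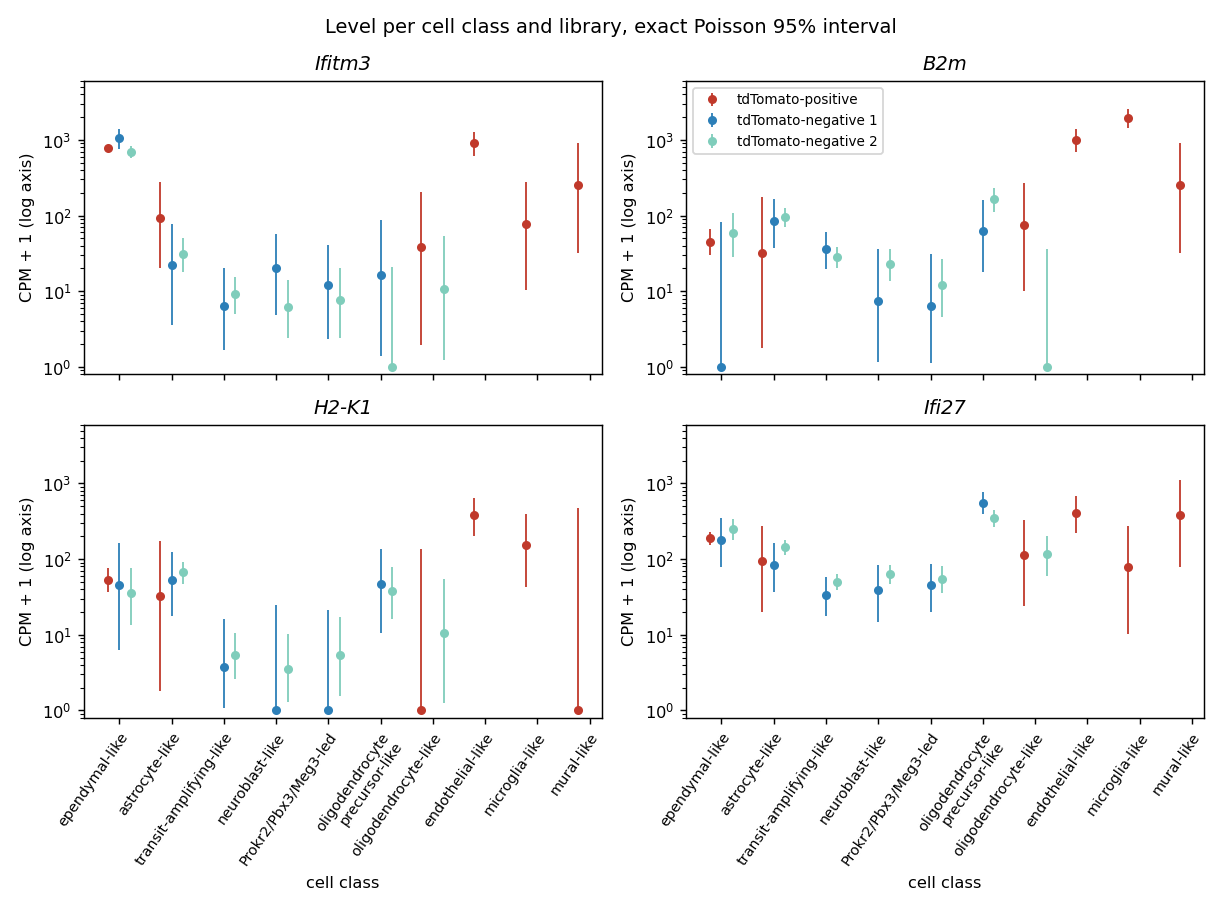
Level of Ifitm3, B2m, H2-K1 and Ifi27 in each cell class and library (CPM + 1, log axis; points are libraries with at least 10 cells of the class, plus 8 mural-like cells; bars are exact Poisson 95% intervals). Ifitm3 in ependymal-like cells stands at 696 to 1046 CPM in all 3 libraries, and Ifi27 is highest among neural classes in oligodendrocyte precursor-like cells, at 346 and 554 CPM.

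Quality measures differed between the classes. The median share of mitochondrial UMIs was 8.64% in ependymal-like cells and 4.77% and 5.66% in the 2 astrocyte-like clusters. Ependymal-like cells with at most 10% mitochondrial UMIs had 735 CPM of Ifitm3 and those above 10% had 925 CPM, so that the level was high in both. Within tdTomato-negative library 2 the order was the other way, at 705 and 607 CPM. Markers of other cell types were few in ependymal-like cells: the 11 endothelial markers summed to 28.8 to 44.5 CPM per library, against 21300 CPM in endothelial-like cells. The 11 microglia markers summed to 34.5 to 100 CPM, against 40398 CPM in microglia-like cells. The 15 immediate early genes of a dissociation list summed to 1093 to 1596 CPM in ependymal-like cells and 303 to 436 CPM in astrocyte-like cells, and their part in these differences was not tested.

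Ifitm2, the neighbour of Ifitm3 on chromosome 7, did not share its pattern. Ependymal-like cells had 35.7, 0 and 17.3 CPM of Ifitm2, astrocyte-like cells 0, 20.9 and 28.2 CPM and neuroblast-like cells 12.7 and 20.6 CPM. These ranges overlapped, and no contrast between classes called Ifitm2. Its highest level among classes of at least 10 cells was 379 CPM, in endothelial-like cells. Reads of the 2 IFITM genes could be split between near-identical copies by the authors' counting, so the separation is uncertain.

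Among the effectors, Ifi27 was the most widely detected. Oligodendrocyte precursor-like cells had 554 and 346 CPM of Ifi27, ependymal-like cells 187, 178 and 247 CPM, and astrocyte-like cells 93.3, 83.6 and 143 CPM. Transit-amplifying-like cells had 32.5 and 49.2 CPM and neuroblast-like cells 38.0 and 61.9 CPM of Ifi27. Every oligodendrocyte precursor-like library lay above the ependymal-like ones, these above the astrocyte-like ones, and these above the last 2 classes, which overlapped. Oligodendrocyte-like cells, at 111 and 115 CPM, fell within the astrocyte-like range. The step between oligodendrocyte precursor-like and ependymal-like cells was not tested.

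Bst2 was detected mostly in ependymal-like cells. Ependymal-like cells had 39.1, 44.5 and 28.8 CPM of Bst2, and 30 of its 43 UMIs. Endothelial-like and microglia-like cells of the tdTomato-positive library had 117 and 115 CPM. Astrocyte-like and transit-amplifying-like cells had 2 UMIs each, oligodendrocyte precursor-like and mural-like cells 1 each, and neuroblast-like cells and the Prokr2/Pbx3/Meg3-led cluster had 0. A count of 0 still allows 3 UMIs in each.

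Gbp2, a guanylate-binding protein, had 27 UMIs in 27 cells, and 20 of them were in ependymal-like cells, at 25.5, 0 and 28.8 CPM. It did not pass the count filter between classes. Pooled, the log2 ratio of Gbp2 over astrocyte-like cells (3 UMIs) was 2.45, with an interval of 0.69 to 4.84. Gbp3, its neighbour, had 17 UMIs.

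Ifit1, Ifit2 and Ifit3 are neighbours on chromosome 19 and encode related RNA-binding proteins, and they differed in the libraries and classes that held most of their UMIs. Ifit1 had 20 of its 22 UMIs in the tdTomato-positive library, 15 in ependymal-like cells and 4 in 1 astrocyte-like cell. Ifit2 had 55 of its 58 UMIs in the tdTomato-negative libraries, 24 of them in transit-amplifying-like cells at 19.0 and 12.5 CPM. Those libraries also held most kept UMIs of all genes (926246 and 3585917, against 720340). By level, Ifit2 overlapped between transit-amplifying-like, oligodendrocyte precursor-like (15.4 and 26.6 CPM) and neuroblast-like cells (25.4 and 7.73 CPM). Ifit3 had 18 UMIs in ependymal-like and 12 in astrocyte-like cells, and 8 of its 37 UMIs came from 1 cell. Ifit1, Ifit2 and Ifit3 were found in 11, 56 and 27 cells. At such numbers few shared cells can be seen: Ifit1 and Ifit2 shared 0, and Ifit2 and Ifit3 shared 1. Ifit1 and Ifit3 shared 2 cells, which are 18.2% of the cells with Ifit1 and 7.41% of those with Ifit3.

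Few cells carried several interferon-induced genes at once. Of Ifit1, Ifit2, Ifit3, Isg15, Usp18 and Irf7, 1527 of 1629 kept cells had none, 95 had 1, 5 had 2 and 2 had 3. Both cells with 3 were ependymal-like and tdTomato-positive, with 4389 and 4256 UMIs in all. The first held 4 UMIs of Ifit1, 2 of Ifit3 and 1 of Irf7, together with 12 of Ifitm3 and 2 of Bst2. The second held 4 of Ifit1, 8 of Ifit3 and 2 of Isg15, together with 8 of Ifitm3 and 2 of Bst2. Scrublet, a doublet caller, marked neither. Isg15, the ubiquitin-like modifier whose window is shown above, had 9 UMIs in 8 cells, 8 of those UMIs in the tdTomato-positive library. Usp18, which removes it from proteins, had 6.

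The transcription factors were thinly covered. Stat2, which binds the ISRE in a complex with Irf9, had 73 UMIs, 36 of them in transit-amplifying-like cells at 8.14 and 24.2 CPM. Ependymal-like cells had 6.80, 22.2 and 0 CPM of Stat2, which overlapped with that range. Transit-amplifying-like cells were deep, with medians of 5564 and 7208 UMIs per cell in their clusters, and they did not have the highest level. Oligodendrocyte precursor-like cells stood higher in Stat2, at 30.8 and 37.2 CPM, a difference that was not tested. Irf1 and Irf9 had 22 and 21 UMIs. Irf7, which drives type I interferon genes, had 3, all in tdTomato-positive ependymal-like cells.

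The gates were compared over all kept cells to ask how the sorted populations differ. The tdTomato-positive library had 16 of the 19 members tested higher and 0 lower, beside 41.8% of all 10944 tested genes called, 22.9% higher and 19.0% lower. Their median log2 difference was 2.20, and that of all tested genes was -0.07. The count filter asked for enough UMIs in only 1 library, so a gene could be tested through the tdTomato-positive library alone. Psmb8 (16.7 CPM against 1.08 and 1.95) and Ifit1 (27.8 CPM against 0 and 0.558) were among such members. The number of members higher is therefore no independent result. The fit set 1 library against 2 with 1 residual degree of freedom, so the spread of the tdTomato-positive group was taken from the other group. The gates differ in their cell classes: ependymal-like cells were 70.2% of the tdTomato-positive library and 4.69% and 4.01% of the others.

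Ifitm3 was at 693 CPM among tdTomato-positive cells, against 61.5 and 43.5 CPM, higher by 3.82 (SE 0.32, adjusted p = 5.49e-31 in edgeR). B2m was at 161 CPM against 29.1 and 41.8 CPM, higher by 2.15 (SE 0.31, adjusted p = 8.36e-11 in edgeR). Bst2 was at 43.0 CPM against 2.16 and 2.79 CPM, higher by 4.01 (SE 0.62, adjusted p = 1.32e-09 in edgeR). In each of these genes the tdTomato-positive library lay above both others. H2-K1 was at 68.0 CPM against 11.9 and 16.5, H2-D1 at 111 against 29.1 and 35.1, and Tapbp at 68.0 against 10.8 and 17.3. Ifi27 was at 189 CPM against 86.4 and 93.4.

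Psmb10, Ifit2 and Stat2 were the 3 members tested without a call. Psmb10 was at 30.5 CPM against 28.1 and 29.6 CPM, a log2 difference of 0.11 (SE 0.43, adjusted p = 0.859 in edgeR). Ifit2 was at 4.16 CPM against 21.6 and 9.76 CPM (-1.67, SE 0.86, adjusted p = 0.108 in edgeR). Stat2 was at 6.94 CPM against 10.8 and 16.2 CPM (-1.01, SE 0.73, adjusted p = 0.264 in edgeR). For the last 2, the tdTomato-positive library was the lowest. DESeq2 called 8 members where edgeR called 16.

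Many of these UMIs lay in 20 endothelial-like cells, 14 microglia-like cells and 8 mural-like ones. Together these 42 cells were 16.7% of the kept tdTomato-positive cells and held 9.49% of their UMIs. Of the B2m UMIs in that library 75% lay in these cells, and of H2-D1 58.8%, Psmb8 91.7% and Psmb9 61.1%. The shares were 34.7% for H2-K1, 25.8% for Bst2, 14.0% for Ifi27 and 7.01% for Ifitm3. The tdTomato-negative libraries held no cell of these classes. Over all kept cells the endothelial markers summed to 1058 CPM for the tdTomato-positive gate against 22.7 and 15.1 CPM, and the microglia markers to 1562 CPM against 15.1 and 16.5 CPM.

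Without those cells 10 members were higher, of 16 tested, and 0 lower, beside 22.6% of all tested genes higher. B2m was then at 44.5 CPM among tdTomato-positive cells and its difference was 0.35 (SE 0.39, adjusted p = 0.487 in edgeR). H2-D1 went from 1.78 to 0.71 (SE 0.38, adjusted p = 0.124 in edgeR). Irf1 lost the call at nearly the same difference, 2.28 against 2.40 (SE 1.10, adjusted p = 0.0824 in edgeR). Ifitm3 stood at 3.91 (SE 0.31, adjusted p = 1.08e-33 in edgeR), Bst2 at 3.79 (SE 0.72, 1.28e-06), Tapbp at 2.12 (SE 0.39, 6.25e-07) and H2-K1 at 1.79 (SE 0.42, 0.000123). Psmb8, Psmb9 and Gbp3 no longer passed the count filter and were not tested. That filter again asked for enough UMIs in only 1 library.

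**Figure D4:**
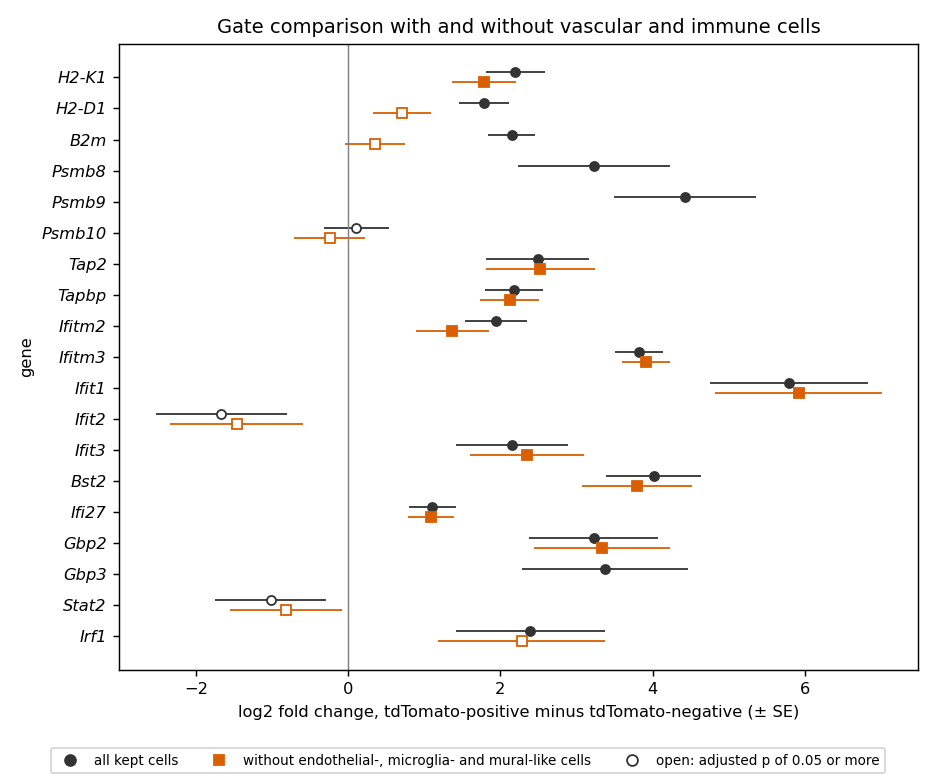
Log2 fold changes of 19 members between gates (tdTomato-positive minus tdTomato-negative, bars are SE) over all kept cells (black) and without those 42 vascular and immune cells (orange; open symbols did not pass). B2m moves from 2.15 to 0.35, whereas Ifitm3 stays near 3.82.

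**Figure D5:**
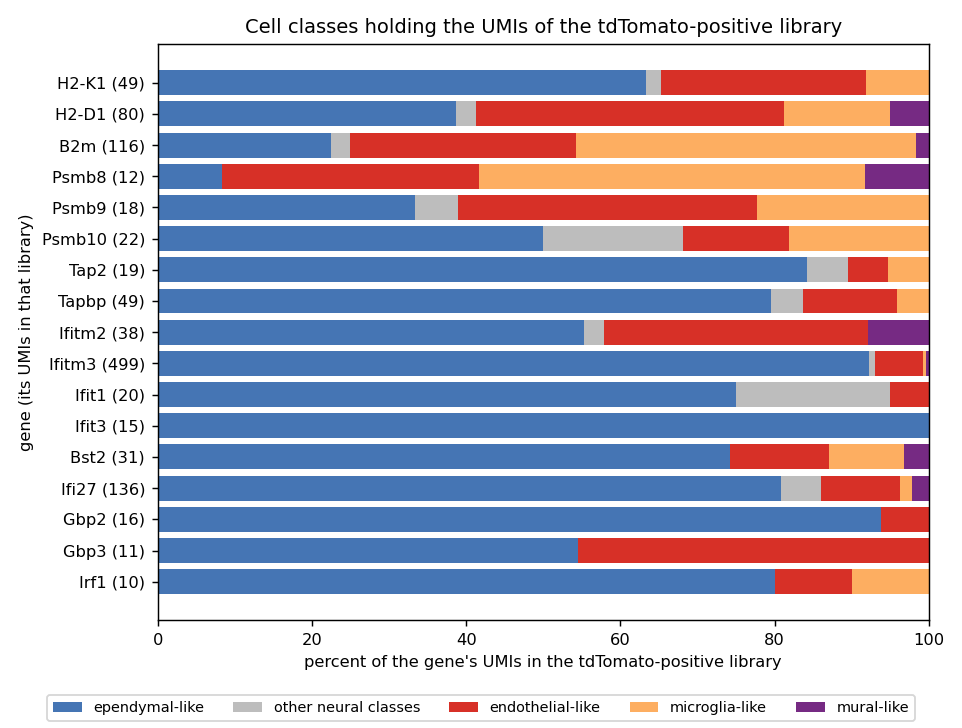
Share of each member's UMIs in the tdTomato-positive library by cell class (percent, members with at least 10 UMIs there, whose number is in parentheses). Ependymal-like cells hold 92.2% of Ifitm3 UMIs and 22.4% of B2m UMIs.

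Within ependymal-like cells no tested member was called between gates. edgeR called 0 of the 6 members tested, 0 passed at an unadjusted p under 0.05, and DESeq2 called 0, beside 0.293% of 4098 tested genes called, 0.171% higher and 0.122% lower. Ifitm3 was at 782 CPM against 1046 and 696 CPM, a difference of 0.03 (SE 0.30, adjusted p = 0.999 in edgeR), and its pooled log2 ratio had a counting interval of -0.23 to 0.29. H2-D1 differed by -0.31 (SE 0.58), Tapbp by -0.07 (SE 0.52), B2m by 0.12 (SE 0.95) and Ifi27 by -0.20 (SE 0.35), each with an adjusted p of 0.999 in edgeR. The tdTomato-positive value lay between the other 2 for Ifitm3, B2m and Ifi27. For H2-K1, which was not tested here, the counting interval of the pooled log2 ratio was -0.63 to 1.86. Among other members not tested here, Ifit1 had 15 UMIs in tdTomato-positive and 0 in tdTomato-negative ependymal-like cells, at least 0.89 higher on the log2 scale, with 8 of the 15 in 2 cells. H2-Ab1 had 1 UMI against 5, a pooled log2 ratio of -3.75 with a counting interval of -9.31 to -0.59. The intervals of B2m (-1.15 to 1.17) and Tapbp (-1.01 to 0.80) leave room for a 2-fold difference.

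Genes around the members were read from a list of 140 pathway genes, of which 134 had a single row. Interferon ligands were next to undetected: 1 UMI, of Ifng, over 9 genes. All 17 receptor and signalling genes had UMIs. Ifnar1, a chain of the type I receptor, was at 38.9 CPM for the tdTomato-positive gate against 39.9 and 40.2 CPM. Ifngr1, the ligand-binding chain of the interferon gamma receptor, was at 101 CPM against 15.1 and 20.1 CPM.

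Between gates over all kept cells, 51 of these pathway genes were tested, and 19 were higher and 4 lower, beside 22.9% and 19.0% of all tested genes. Without the vascular and microglia-like cells edgeR called 10 higher and 6 lower of 44, and DESeq2 on all kept cells called 9 and 2. The same count filter applied, so a pathway gene could also be tested through the tdTomato-positive library alone. The 5 largest increases were of Ctss, Lgals9, Irf8, Ifitm1 and Il10rb. Ctss, a protease that trims the invariant chain and is a leading gene of the microglia-like cluster, was at 144 CPM against 0 and 0.279 CPM. Irf8, a myeloid transcription factor, was at 36.1 CPM against 1.08 and 1.39 CPM. Lower were Cd1d1, Daxx, Psmb7 and Psme1. Cd1d1, which presents lipids to NKT cells, had 0 UMIs in the tdTomato-positive library and 318 in the others, at least 4.08 lower on the log2 scale. Psmb7, the constitutive counterpart of Psmb10, was at 73.6 CPM against 184 and 220.3 CPM (-1.42, SE 0.35, adjusted p = 0.000296 in edgeR).

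Between ependymal-like and astrocyte-like cells, 36 pathway genes were tested, with 1 higher and 1 lower, beside 19.0% and 10.6% of all tested genes. DESeq2 called 0 higher and 1 lower. Socs3, an inhibitor of JAK signalling, had 11 UMIs against 0, at least 1.58 higher on the log2 scale. Tlr3, a sensor of double-stranded RNA, had 6 UMIs against 50 (-3.91, SE 0.80, adjusted p = 1e-05 in edgeR). Against transit-amplifying-like cells, 5 were higher (Il10rb, Mr1, Ifngr1, Shisa5 and Lgmn) and 3 lower (Cd1d1, Psmb7 and Psmb6), beside 21.6% and 24.1% of all tested genes. Ifngr1 had 64 UMIs against 18 (2.62, SE 0.56, adjusted p = 1.8e-05 in edgeR) and Mr1, a class I-like molecule, 35 against 6 (3.09, SE 0.93, adjusted p = 0.00296 in edgeR). Cd1d1 had 0 UMIs in ependymal-like cells and 106 in transit-amplifying-like cells, at least 4.04 lower on the log2 scale.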

How the data were processed

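The files hold whole-number UMI counts per gene and cell barcode, deposited by the authors as 10x matrices of 3 libraries. Per the submitters' processing notes the tools included Cell Ranger, STAR and Seurat, with GRCm38.p5 and mm10 named as builds, and no role is given for each. Of 1700 barcodes, 1629 were kept (at least 300 genes, at most 25% mitochondrial UMIs), and no Scrublet call was removed in the reported values. Cells were clustered in scanpy 1.11.5 (1000 variable genes, 20 components, Leiden resolution 1) on 14024 genes, without members or pathway genes, and named from 135 markers in 13 lists. UMI sums over each library, and over each class within a library (at least 10 cells), were tested with edgeR 4.0.16 (TMM, filterByExpr, quasi-likelihood, Benjamini-Hochberg at 0.05). Class contrasts used 13974 genes that did not build the clusters, with the library as a block, which pairs classes from the same library. Ratios with 3 or fewer UMIs in a group are pooled, with exact 95% intervals. Members with at least 20 UMIs are described per library, others by counts. Pathway genes named are up to 5 with the largest folds each way. The values of 1 pathway gene are not reported here. Members and lists were chosen with earlier results of these data known. Alternatives were RLE scaling, DESeq2 1.42.0, no count filter, stricter cells (500 genes, 10%), Scrublet removal, other clusterings, no block, and leaving out libraries or the vascular and microglia-like cells.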

Additional observations from a re-analysis of the deposited data

How the results depend on the processing

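Of 553 values for 55 gene results under the alternatives, 467 were counted as unchanged, 80 lost the call, 6 moved and 0 reversed. The 55 include uncalled members of the gate comparison within ependymal-like cells, where a change of sign was not counted. Ifitm3 there was at 0.03 in edgeR and at -0.03 with DESeq2. Fits without a test were compared by the direction and size of the difference only. Between gates over all kept cells, 16 members became 8 with DESeq2 and 10 without the vascular and microglia-like cells. Ependymal-like against astrocyte-like cells, 4 members became 1 with DESeq2, 2 with no count filter, 1 with the stricter cell filter and 2 with no replicate block. Against oligodendrocyte-like cells, 2 became 1 with RLE scaling, DESeq2, no count filter or resolution 0.5, and 4 with clustering on the other genes. Leaving out 1 library gave 1 to 1 members against astrocyte-like, 2 to 5 against transit-amplifying-like, 1 to 5 against neuroblast-like and 1 to 2 against oligodendrocyte-like cells. For astrocyte-like cells it gave 0 to 8 against transit-amplifying-like and 0 to 7 against neuroblast-like cells by edgeR. The causes were not tested, apart from fewer samples and genes tested. Fitted without the replicate block, the other class contrasts gave 9, 9, 2, 8 and 5 members. No paired analysis was possible because the tdTomato-positive gate has 1 library, and leaving out a library there leaves no residual degree of freedom. Without tdTomato-negative library 2 the gate difference moved for Ifit1 (3.71, and 4.26 without library 1), B2m (2.51), Ifitm2 (2.45), Psmb9 (3.06) and Tap2 (1.65). Depth limits the members under 20 UMIs, few of which passed the count filter.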

Other observations

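The astrocyte-like cells fell into a cluster led by Gfap (63 cells) and one led by Slc7a10 (213 cells), and some members differed between them. These genes were chosen after their values were seen, and no test was made. H2-D1 was at 41.4 CPM in the Gfap-led and 27.9 CPM in the Slc7a10-led cells of tdTomato-negative library 1, and at 195 and 21.0 CPM in library 2. Ifitm3 was at 41.4 and 14.0 CPM in library 1 and at 97.5 and 14.0 CPM in library 2, and Ifitm2 at 82.9 and 0 CPM, then 87.8 and 14.0 CPM. The Gfap-led cells were the higher ones in both libraries for these 3 genes. Library 1 held only 13 Gfap-led cells, where 41.4 CPM is the level of 1 UMI. Its order rests on 1 or 2 UMIs per gene there and is a weak check of library 2. H2-K1 was at 82.9 and 41.9 CPM in library 1 and at 68.3 and 65.2 CPM in library 2, and B2m at 82.9 and 83.8 CPM, then 78.0 and 97.8 CPM. Of the genes Ifit1, Ifit2, Ifit3, Isg15, Usp18 and Irf7, at least 1 was detected in 12 of 63 Gfap-led and 6 of 213 Slc7a10-led cells.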
